A study of Mus musculus with 3 samples.

Results

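Ccl3, Ccl4, Ccl5 and Ccr1 are 4 of the 32285 genes counted in 3 single-cell libraries from non-small cell lung cancer tissue of mice. Their unique molecular identifiers (UMIs, each counting 1 captured transcript) were summed over barcodes with at least 500 UMIs, at least 200 genes and at most 20% mitochondrial UMIs. The identifiers were ENSMUSG00000000982 for Ccl3, ENSMUSG00000018930 for Ccl4, ENSMUSG00000035042 for Ccl5 and ENSMUSG00000025804 for Ccr1. The genes were chosen by their UMI levels across the cell types and libraries, in earlier results of these data, so those levels are given as a description with no test.

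The 3 libraries were labelled PBS, PD-L1 and AI-Exo, and values are given in that order throughout. The title names exosomes that inhibit autophagy, and the design speaks of immune cells after drug treatment. Strain, age, the tumour line, doses, times, the number of animals per library and the meaning of the label AI-Exo do not stand in the labels used. Each group was 1 library, so no difference has a replicate check and no test was made. Intervals in brackets are at 95% and cover the error of counting alone. The words higher and lower compare single libraries. The PD-L1 and AI-Exo ratios share the PBS library.

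After filtering, 9359, 9697 and 10457 cells were kept, with 64594803, 61813852 and 72142040 UMIs and medians of 4380, 3948 and 4425 UMIs per cell. Libraries shared between 23 and 33 cell barcodes in each pair. Cells were assigned to types by marker genes that include none of the 4 members, and are called by the type with the suffix "-like". No type was assigned to 15.1%, 17.5% and 16.3% of cells. Cells with tumour markers (Rhox5, Hmga2, Krt8) numbered 16, 5 and 12 and those with epithelial markers 2, 3 and 3, so few cells carried the markers of either. Immature T-like cells numbered 754, 714 and 3.

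CC chemokines are small secreted proteins that attract leukocytes through G protein-coupled receptors. Ccl3 and Ccl4, also called macrophage inflammatory proteins, are made by activated myeloid cells and cytotoxic lymphocytes, and Ccl5 (RANTES) is a well-known product of effector T cells and NK cells. Ccr1 is a receptor of Ccl3 and Ccl5 found on neutrophils and mononuclear phagocytes.

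Promoter windows from RefSeq (GRCm38.p6) were matched by symbol for 2 of the 4 members. They are shown because these 2 members alone had an entry. Ccl3 and Ccr1 were both abundant in neutrophil-like cells, with very different ratios between the libraries there. A link between these windows and the ratios was not tested. Each line gives the 250 bases before the start site, 5′ to 3′ on the minus strand of the chromosome, at chr11:83649379-83649628 for Ccl3 and chr9:123968693-123968942 for Ccr1. Capitals mark matches to any of the motifs named after them.
Ccl3: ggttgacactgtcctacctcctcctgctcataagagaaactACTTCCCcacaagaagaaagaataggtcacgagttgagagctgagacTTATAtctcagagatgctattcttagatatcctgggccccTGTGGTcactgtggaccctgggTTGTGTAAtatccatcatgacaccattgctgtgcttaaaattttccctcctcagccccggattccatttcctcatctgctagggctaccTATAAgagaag
Ccr1: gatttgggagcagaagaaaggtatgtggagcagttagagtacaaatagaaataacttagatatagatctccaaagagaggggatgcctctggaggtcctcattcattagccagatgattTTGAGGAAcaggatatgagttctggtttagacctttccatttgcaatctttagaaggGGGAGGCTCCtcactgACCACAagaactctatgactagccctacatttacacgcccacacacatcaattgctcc

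Both strands of 300 bases, reaching 50 bases past the start, were searched for 8 patterns. Of these, 7 were searched first, and the long NF-kB pattern was added after their matches had been seen. The C/EBP pattern TTGNNNAA was found at -100 from the start of Ccl3 and at -131 in Ccr1, and in 36.7% of 32851 promoter windows of the same length. The Runx pattern TGTGGT was found at -122 in Ccl3 and at -58 in Ccr1, and in 16.8% of all windows. The 2 forms of the NF-kB pattern differed: the short GGGANNT was found at -209 in Ccl3 and not in Ccr1, and the long one, GGG and CC with 5 bases between them, at -74 in Ccr1 and not in Ccl3. They were present in 50.9% and 50.8% of all windows. The TATA pattern TATAA was found in Ccl3 alone, at -162 and -11, and in 24.9% of all windows. Neither window held an AP-1 pattern, TGA and TCA around 1 base, which 7.81% of windows had. Neither held GAAA repeated after 2 bases, part of an interferon-stimulated response element (3.44%), or the Ets pattern AGGAAG (35.4%). No matches overlapped. The matches describe letters in these windows and no binding was measured.

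Levels are in CPM, which are the UMIs of a gene summed over the cells of a type and library, per 1000000 UMIs of those cells. UMIs count transcript ends, so a level is not per length, and levels are compared within a gene. NK-like cells had the highest median Ccl3 level over the 3 libraries among 12 types with at least 50 cells in each, at 1177, 1070 and 1205 CPM. Neutrophil-like cells had 1770, 495 and 758 CPM, a range that covered the values of NK-like, classical monocyte-like and macrophage-like cells, and stood above NK-like cells in PBS. Ccl4 was likewise highest in NK-like cells (5641, 6071 and 7427 CPM). Among the 12 types, classical monocyte-like and macrophage-like cells followed with ranges that overlapped each other. Type 2 conventional dendritic cell (cDC2)-like cells, 119, 67 and 43 in number, were too few in AI-Exo to be ranked. They made up 1.27%, 0.691% and 0.411% of cells and held 6.38%, 3.77% and 1.23% of Ccl4 UMIs. Ccl5 was highest in NK-like cells (25049, 20603 and 21947 CPM), then in CD8 T-like and mature dendritic cell-like cells, with no overlap between these neighbours. Ccr1 was highest in neutrophil-like cells (673, 710 and 561 CPM), with each of the other 11 types at 135 CPM or less in every library.

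**Figure D1:**
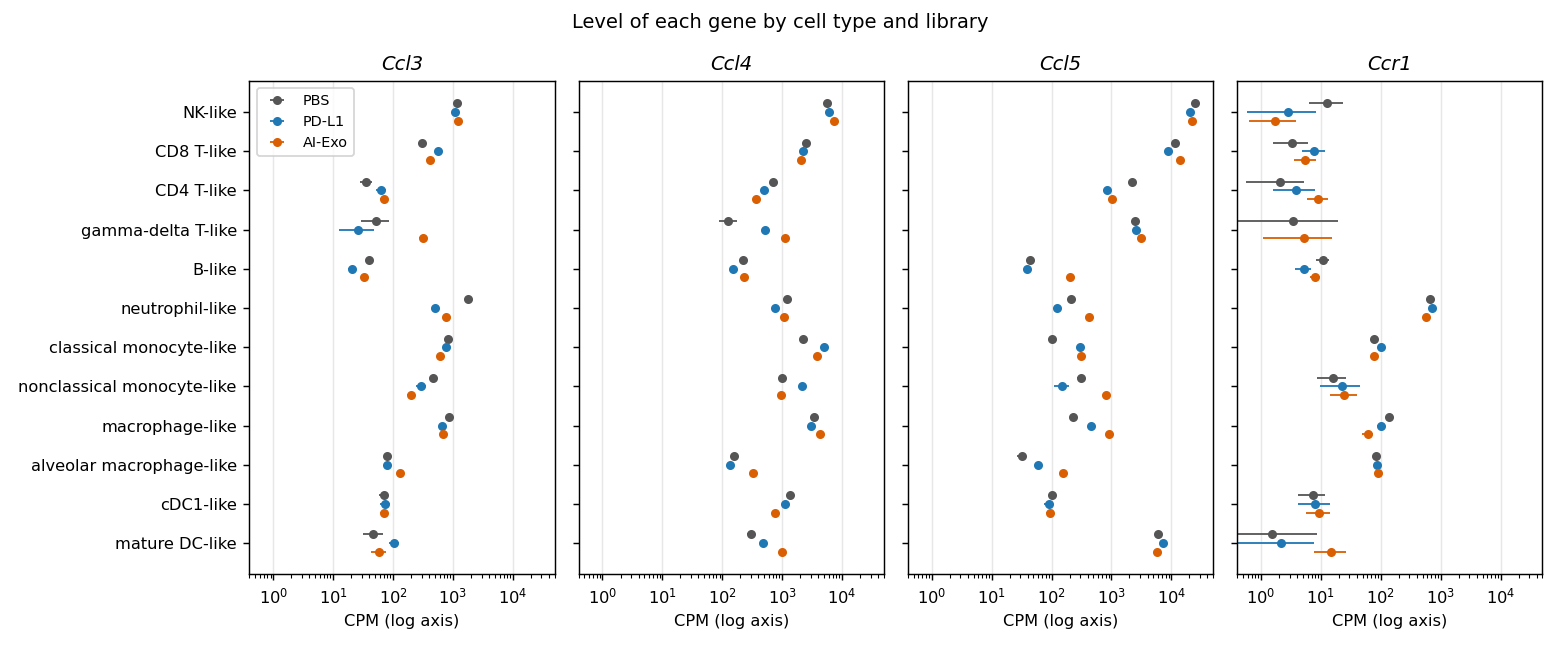
Level of each gene in CPM on a log axis, by cell type (rows) and library (colours), with bars for exact Poisson 95% intervals (counting error only). Ccl5 stands at 20603 CPM or more in NK-like cells and at 202 or less in B-like cells, and Ccr1 stands at 561 to 710 CPM in neutrophil-like cells against 13 CPM or less in NK-like cells; γδ T-like cells of PD-L1 held 0 UMIs of Ccr1 and have no point.

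The cell types that held the UMIs differed between the members. Neutrophil-like cells held 27.0%, 20% and 22.7% of Ccl3 UMIs and classical monocyte-like cells 26.4%, 13.7% and 7.93%. NK-like cells held 3.41%, 6.41% and 17.2% of Ccl3 and 5.06%, 7.55% and 22.4% of Ccl4. The NK-like share of cells was itself 2.27%, 2.28% and 5.55%, and the classical monocyte-like share 11.6%, 4.99% and 2.93%. CD8 T-like and NK-like cells held 35.8%, 30.6% and 29.1% and 22.7%, 27.8% and 35.0% of Ccl5. Neutrophil-like cells held 51.3%, 68.4% and 58.1% of Ccr1. Unassigned cells held 21.1%, 26.5% and 26.9% of Ccl3 and 27.5%, 34.8% and 32.9% of Ccl4, so a large part of both ligands is outside the named types.

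**Figure D2:**
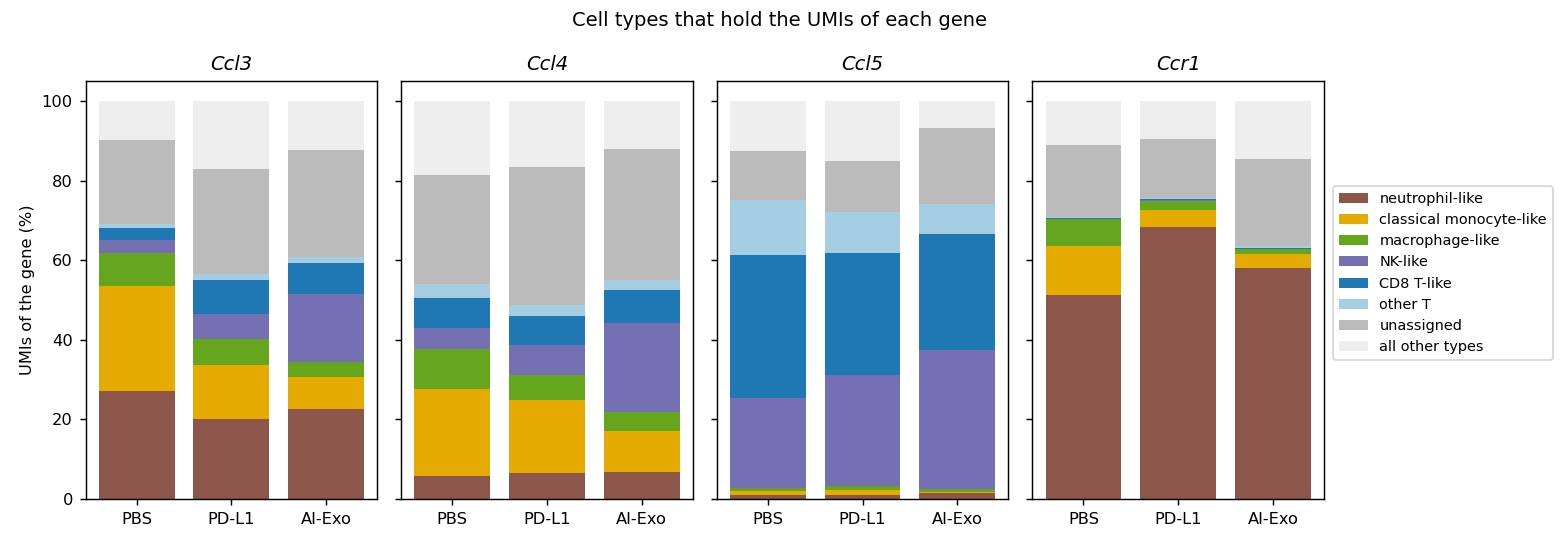
Share of the UMIs of each gene (y axis, %) held by each cell type, with 1 bar per library. The NK-like part of Ccl3 and Ccl4 is widest in AI-Exo (17.2% and 22.4%), and neutrophil-like cells hold over 50% of Ccr1 in each library.

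In neutrophil-like cells Ccl3 was lower in both other libraries than in PBS. The level was 1770 [1730 to 1810] CPM in PBS, 495 [478 to 511] in PD-L1 and 758 [738 to 779] in AI-Exo, from 7992, 3506 and 5499 UMIs in 1437, 1996 and 1613 cells. The log2 ratio of CPM plus 10 to PBS was -1.82 [-1.88 to -1.76] in PD-L1 and -1.21 [-1.26 to -1.16] in AI-Exo. PBS was thus the high library and the 3 intervals did not overlap. Free RNA in solution, read from barcodes of at most 100 UMIs, could give at most 0.997%, 1.86% and 3.97% of these UMIs. Granule-rich cells, which express genes of granule formation such as Ltf and Camp, made up 9.32%, 6.46% and 14.9% of neutrophil-like cells and had 1455, 258 and 328 CPM. In the mature cells the level was 1829, 531 and 985 CPM, and the AI-Exo ratio was -0.89 in place of -1.21.

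The difference was relatively larger for cells with many Ccl3 UMIs than for cells with any. After each cell was thinned to 1000 UMIs, which left out 44, 59 and 87 shallower cells, 32.4%, 18.9% and 28.8% of neutrophil-like cells had at least 1 Ccl3 UMI. Cells with at least 10 made up 7.18%, 1.29% and 3.34%. Unthinned, 41.3%, 31.0% and 44.3% had a UMI, at median depths of 2463, 2767 and 2921 UMIs. B-like cells, with medians of 3249, 3656.5 and 3848 UMIs, gave 2.05%, 1.14% and 1.89% after thinning, so the neutrophil-like shares stood well above that level.

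**Figure D3:**
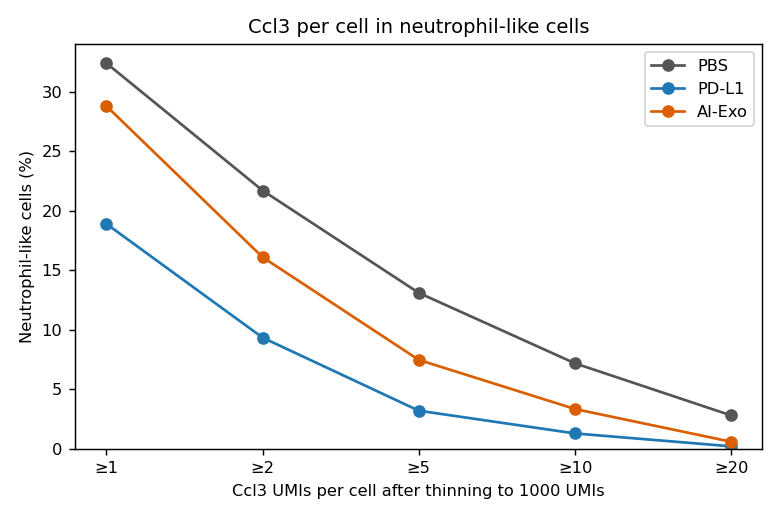
Share of neutrophil-like cells (y axis, %) with at least the given number of Ccl3 UMIs after thinning each cell to 1000 UMIs (x axis), 1 line per library. The lines start at 32.4%, 18.9% and 28.8% and stand at 7.18%, 1.29% and 3.34% for 10 UMIs or more.

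Ccl4 in neutrophil-like cells was 1221, 767 and 1053 CPM, a ratio of -0.66 [-0.72 to -0.61] in PD-L1 and -0.21 [-0.26 to -0.16] in AI-Exo. PD-L1 was again the low library, by less than for Ccl3. Of the UMIs of Ccl3 and Ccl4 together, Ccl3 made up 59.2% [58.4 to 60.0], 39.2% [38.2 to 40.2] and 41.9% [41.0 to 42.7]. In thinned cells, 38.4%, 33.5% and 44.8% of those with Ccl3 also had Ccl4, against 12.6%, 14.8% and 17.3% of those without. Ccl5 was 210, 121 and 422 CPM there, but at least 93.5% of its UMIs lay in the 10% of cells with most, and 28.2, 36.3 and 88.6 CPM remained in cells with no UMI of a T or NK cell gene, where the PD-L1 ratio was 0.28 in place of -0.75. T lineage markers summed to 136, 173 and 122 CPM in neutrophil-like cells and NK markers to 14.0, 13.8 and 24.1 CPM, with all 8 of each detected, and their part in the Ccl5 values was not tested. Free RNA could make up at most 2.53%, 2.4% and 5.86% of all UMIs of neutrophil-like cells. Ccl5 stood at 1010, 890 and 2420 CPM in free RNA, and the part of free RNA in the Ccl5 values was not tested.

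Ccr1 differed little in the same cells. Its level was 673 [650 to 698], 710 [691 to 730] and 561 [544 to 579] CPM, with ratios of 0.08 [0.01 to 0.14] and -0.26 [-0.33 to -0.19]. AI-Exo was the low library, and in mature cells alone the levels were 708, 744 and 674 CPM with an AI-Exo ratio of -0.07 [-0.14 to 0.00]. In thinned cells Ccr1 was found both beside Ccl3 and without it, in 51.7% against 45.1% in PBS, 52.9% against 49.4% in PD-L1 and 49.1% against 44.1% in AI-Exo. Ratios past 1.5-fold either way were found for 6.46% of 6036 genes in PD-L1 and for 6.65% of 6213 in AI-Exo. Of the 4 members, Ccl3, Ccl4 and Ccl5 were past that size in PD-L1 and Ccl3 and Ccl5 in AI-Exo, and Ccr1 in neither. For Ccl4 in PD-L1 the call ended in mature cells alone (-0.57) and relative to the median gene (-0.58), and for Ccl5 in PD-L1 it ended in cells without T or NK cell genes. The Ccl5 ratios in neutrophil-like cells were not taken with free RNA subtracted.

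Other genes of the pathway in neutrophil-like cells came from lists chosen with earlier results known. Of 19 NF-kB and immediate early genes, 0 were higher and 3 lower in PD-L1 (median ratio -0.14, against -0.08 over all genes tested), and 0 higher and 5 lower in AI-Exo (median -0.46, against 0.03). Cxcl3, a neutrophil attractant, had the lowest ratio in both, with 1140, 480 and 421 CPM, whereas Il1b, which encodes interleukin 1β, stood at 9540, 11700 and 9400 CPM. Of the interferon response genes, 11 of 13 tested were higher in PD-L1 and 0 lower (median 2.0), and 5 of 14 were higher in AI-Exo and 0 lower (median 0.38). Ifit3, an interferon-induced antiviral gene, was 36.6 CPM in PBS and 614 in PD-L1, a ratio of 3.75. Signal transduction genes below chemokine receptors showed 0 higher and 1 lower of 16 in PD-L1, namely Rgs1, an inhibitor of G protein signalling (280 and 176 CPM). In AI-Exo 0 of 17 were past the size. Among other ligands of the same receptors, Ccl6 was 1300, 664 and 913 CPM and Ccl7 was 11.3, 65.3 and 19.2 CPM.

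Classical monocyte-like cells had more Ccl4 in both other libraries, nearly equal Ccl3 in PD-L1 and less Ccl3 in AI-Exo, by under 1.5-fold. Ccl3 was 828, 773 and 619 CPM, ratios of -0.10 [-0.16 to -0.03] and -0.41 [-0.49 to -0.34]. Ccl4 was 2205 [2170 to 2230], 5038 [4960 to 5120] and 3795 [3730 to 3860] CPM, ratios of 1.19 [1.16 to 1.22] and 0.78 [0.75 to 0.81]. PBS was the low library for Ccl4, and 29.2%, 53.2% and 54.2% of thinned cells had a Ccl4 UMI. The Ccl3 part of both ligands was 27.3%, 13.3% and 14.0%. These cells thus had the ligands in a different proportion from PBS in both other libraries, as neutrophil-like cells did.

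Ccl5 in classical monocyte-like cells was low in PBS and higher in the other libraries. Its level was 104 [97.2 to 110], 300 [282 to 320] and 313 [293 to 333] CPM, from 976, 934 and 971 UMIs in 1087, 484 and 306 cells. The ratios were 1.45 [1.33 to 1.57] and 1.51 [1.38 to 1.63]. Few cells carried it: 5.24%, 9.11% and 15.4% of thinned cells had a UMI, against 2.73%, 1.52% and 5.02% of B-like cells, and the top 10% of cells held 92.4%, 93.8% and 80.7% of the UMIs. Free RNA could give at most 11.2%, 6.14% and 10.5%. Among monocyte-like cells with no UMI of a T or NK cell gene the levels were 63.8, 206 and 297 CPM, with ratios of 1.55 and 2.06. T lineage markers summed to 78.4, 182 and 50.2 CPM and NK markers to 5.31, 24.1 and 17.1 CPM, with all 8 of each detected, and Gzma, a granzyme, was 4.35, 50.5 and 39.9 CPM. Their part in the Ccl5 values of the whole class was not tested.

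Ccr1 stood at a low level in these cells, with 77.2, 99.7 and 78.6 CPM and ratios of 0.33 and 0.02. Ratios past 1.5-fold were found for 13.5% of 7360 genes in PD-L1 and 8.01% of 7330 in AI-Exo, and Ccl4 and Ccl5 were the 2 of 4 members past it in both. All 14 interferon response genes tested were higher in PD-L1 (median 1.45), with Slfn4 at 41.4 and 253 CPM, and 8 of 14 in AI-Exo (median 0.73), with Ifit1 at 71.4 and 320 CPM. Cxcl10, a chemokine induced by interferon, was 501, 1100 and 1060 CPM. NF-kB and immediate early genes were higher in 4 and lower in 1 of 19 in PD-L1 and lower in 2 of 19 in AI-Exo, with medians of 0.32 and 0.04. Fos, an immediate early gene, was 7240, 8440 and 5040 CPM. Of the cytotoxic genes, 4 of 12 could be tested, of which 3 were higher in PD-L1 and 4 in AI-Exo, and none was lower.

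Macrophage-like cells, 199, 132 and 105 in number, had Ccl3 and Ccl4 within 1.5-fold of PBS in both other libraries. Ccl3 was 845, 660 and 690 CPM and Ccl4 was 3335, 3066 and 4255 CPM. In cells without a T or NK cell gene, 92, 75 and 61 in number, Ccl4 was 2775, 3467 and 5041 CPM, and the AI-Exo ratio of 0.86 was past 1.5-fold. Ccl5 was 224 [207 to 242], 453 [421 to 486] and 924 [872 to 978] CPM, ratios of 0.98 and 2.0. Without cells with a T or NK cell gene the levels were 83.1, 77.97 and 327 CPM, so PD-L1 was no longer higher than PBS. T lineage markers summed to 533, 398 and 165 CPM and NK markers to 10.3, 16.5 and 48.4, with Klra4 at 0 in PD-L1 and Ncr1 at 0 in AI-Exo. Ccr1 was 135 [122 to 149], 101 [86.6 to 117] and 60.7 [48.0 to 75.6] CPM, past 1.5-fold of PBS in AI-Exo (-1.04). In types where the mean of both libraries was under 10 CPM, no call was made for Ccr1. The share of all genes past it was 8.24% in PD-L1 and 12.5% in AI-Exo. Among other ligands, 6 of 7 tested were lower in PD-L1 and 7 of 7 in AI-Exo, with Ccl2, which draws monocytes, at 2260, 870 and 740 CPM and Ccl8 at 756, 305 and 184 CPM.

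Alveolar macrophage-like cells had low levels of all members. Ccl3 was 78.5, 78.5 and 133 CPM and Ccl4 was 156, 135 and 329 CPM, both past 1.5-fold in AI-Exo alone (0.69 and 1.03), where 2.97% of all genes were past it. In cells without T or NK cell genes the AI-Exo ratio of Ccl3 was 0.40, and its call ended. Ccl5 was 31.7, 60.0 and 156 CPM, and 17.0, 10.1 and 55.7 CPM in cells without T or NK cell genes. Its AI-Exo ratio of 1.99 was also past 1.5-fold. That ratio was 1.95 without the top cell and 1.28 in cells without T or NK cell genes. In PD-L1 Ccl5 was the only member past the size (0.75), where 0.927% of all genes were. Its ratio was -0.42 in cells without T or NK cell genes and 0.53 without the top cell, so the call ended in both. Free RNA, with Ccl5 at 1010, 890 and 2420 CPM, could make up at most 1.36%, 1.45% and 1.47% of all UMIs of alveolar macrophage-like cells. Its part in their Ccl5 values was not tested. Ccr1 was 81.9, 86.5 and 91.3 CPM, within 0.14 on the log2 scale of PBS. Ccl6, another ligand of Ccr1, was 3390, 3560 and 4020 CPM there.

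NK-like cells kept similar levels of all 3 ligands. Ccl3 ratios were -0.14 and 0.03. Ccl4 ratios were 0.11 [0.05 to 0.16] and 0.40 [0.35 to 0.44], with AI-Exo as the high library. Ccl5 was 25049 [24700 to 25400], 20603 [20300 to 20900] and 21947 [21800 to 22100] CPM, ratios of -0.28 and -0.19, with PBS as the high library. Nearly every cell carried it, at 97.6%, 99.1% and 99.0% after thinning. None of the 3 ligands was past 1.5-fold, where 8.57% and 7.79% of all genes were. The number of NK-like cells was 212, 221 and 580, and neutrophil markers summed to 217, 184 and 1460 CPM in them, a part in the ratios that was not tested. Gzma and Nkg7, genes of cytotoxic granules, were 12500, 12200 and 13300 CPM and 2590, 2960 and 2670 CPM. Ccr1 was near the floor, with 11, 3 and 6 UMIs.

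In CD8 T-like cells Ccl5 was 11406, 8804 and 13987 CPM, ratios of -0.37 [-0.40 to -0.35] and 0.29 [0.28 to 0.31]. PD-L1 was the low and AI-Exo the high library, and the share of thinned cells with a UMI was 64.5%, 68.8% and 80.1%. Effector-like cells, called by genes such as Gzmk and Cxcr6, made up 50%, 55.8% and 65.8% of the class. Within them Ccl5 was 20394, 15268 and 21099 CPM and the AI-Exo ratio was 0.05 [0.03 to 0.07]. Naive-like cells had 347, 372 and 871 CPM. Ccl4 was 4602, 3620 and 2742 CPM in effector-like cells, a ratio of -0.74 [-0.79 to -0.70] in AI-Exo, and 2473, 2233 and 2090 CPM in the whole class.

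Ccl3 in CD8 T-like cells was 298 [279 to 319], 553 [525 to 582] and 415 [397 to 435] CPM. The ratio of 0.87 in PD-L1 rested on 1 cell, which held 561 of 1498 UMIs. Without the cell with most Ccl3 in each library, a step added after its weight was seen, the ratio was 0.32. With every cell weighted equally it was 0.39, and without the deepest 5% of cells 0.26. The share of thinned cells with Ccl3 was 12.2%, 13.1% and 14.1%. At 0.87 it was past 1.5-fold, as were 3.5% of 7795 genes, while the AI-Exo ratio of 0.46 was not, where 5.33% of 7737 genes were. Basophil or mast cell markers summed to 1.33 CPM or less in these cells. Ccr1 rested on 10, 21 and 25 UMIs. Among cytotoxic genes 1 of 12 was higher and 1 lower in PD-L1, and 1 higher in AI-Exo, with Gzma at 1230, 589 and 1400 CPM. Rgs16, an inhibitor of G protein signalling, was 57.2, 177 and 167 CPM.

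CD4 T-like cells as a class had less Ccl5 in both other libraries: 2164 [2100 to 2230], 832 [791 to 876] and 1010 [974 to 1050] CPM, ratios of -1.37 and -1.09. PBS was the high library, and 36.3%, 15.1% and 19.6% of thinned cells had a UMI. Effector-like cells made up 38.8%, 23.5% and 35.1% of the class, and within them the ratios were -0.45 and -1.11. In naive-like cells Ccl5 was low and differed the other way, with 26.2, 86.6 and 65.1 CPM from 18, 92 and 75 UMIs, ratios of 1.41 and 1.05. Free RNA, with Ccl5 at 1010, 890 and 2420 CPM, could make up at most 1.99%, 1.94% and 1.46% of all UMIs of naive-like cells. Its part in their Ccl5 values was not tested. In the whole class Ccl4 was 697, 490 and 365 CPM, ratios of -0.50 and -0.91. Ccl3 was 35.7, 62.1 and 70.6 CPM, but 27 of 69 UMIs in PBS, 41 of 111 in PD-L1 and 113 of 212 in AI-Exo lay in 1 cell each. Without those cells the levels were 21.9, 39.4 and 33.1 CPM, and the AI-Exo call ended (0.43). Past 1.5-fold were 6.29% of all genes in PD-L1, with Ccl3 and Ccl5 among the 3 members tested, and 5.69% in AI-Exo, with Ccl3, Ccl4 and Ccl5 among them. Basophil or mast cell markers summed to 8.8, 47.6 and 6.66 CPM in CD4 T-like cells, but only 2, 2 and 3 of the 8 markers were detected. In PBS and PD-L1 these were Cd200r3 and Il4 alone, with Mcpt8, Cpa3, Gata2, Fcer1a, Ms4a2 and Cyp11a1 at 0. A part of basophil or mast cell RNA in the Ccl3 values was not tested.

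Mature dendritic cell-like cells, 60, 74 and 71 in number, had 6046, 7245 and 5784 CPM of Ccl5, ratios of 0.26 and -0.06. In PBS 1 cell held 987 of 3881 UMIs, and without it the level was 4642 CPM. In the 27, 31 and 30 cells without a T or NK cell gene, Ccl5 was 8034, 8905 and 3330 CPM, and the AI-Exo ratio was -1.27, past 1.5-fold. Ccl4 was 162, 335 and 409 CPM in those cells. In the whole class it was 299, 477 and 974 CPM, with 224 of 790 UMIs of AI-Exo in 1 cell. Past 1.5-fold were 15.9% of all genes in PD-L1, Ccl3 and Ccl4 among them, and 18.3% in AI-Exo, with Ccl4 among them. Ccl3 there rested on 30, 97 and 47 UMIs, of which 1 cell each held 26, 44 and 13. In cells without a T or NK cell gene it was 6.21, 2.75 and 16.6 CPM, ratios of -0.35 and 0.72, so the PD-L1 call ended. Without the top cell of each library the ratios were 2.04 and 1.71. In cDC1-like cells Ccl4 was 1338, 1122 and 745 CPM, past the size in AI-Exo (-0.84), where 4.96% of genes were, and Ccl3 was 69.9 to 73.8 CPM. No member was past it in PD-L1, where 5.44% of genes were. The highest levels of Ccl3 and Ccl4 in any type were in basophil or mast-like cells, which were only 4, 11 and 7 cells: Ccl3 was 11058, 22442 and 18821 CPM and Ccl4 was 13334, 39096 and 39014 CPM.

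Nonclassical monocyte-like cells, 170, 86 and 136 in number, had 472, 297 and 200 CPM of Ccl3, ratios of -0.65 [-0.96 to -0.35] and -1.20 [-1.47 to -0.93]. PBS was the high library, as in neutrophil-like cells. Ccl4 was 981, 2139 and 957 CPM, with PD-L1 alone high (1.12). Ccl5 was 307, 147 and 810 CPM, but 1 cell of PBS held 239 of its 270 UMIs. Without the top cell of each library Ccl5 was 35.8 CPM in PBS and 88.6 in PD-L1, and the PD-L1 ratio turned from -1.01 to 1.10. In cells without T or NK cell genes it was 1.72. The AI-Exo ratio of Ccl5 was 1.37, but 3.72 without the top cell and 2.83 in cells without T or NK cell genes. Those cells held 15.9% of the Ccl5 UMIs of AI-Exo. Past 1.5-fold were 27.7% of all genes in PD-L1, with the 3 ligands among them, and 22.2% in AI-Exo, with Ccl3 and Ccl5. Ccr1 rested on 14, 8 and 17 UMIs.

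In γδ T-like cells, 50, 58 and 91 in number, Ccl5 was 2499, 2615 and 3143 CPM, within 0.33 of PBS on the log2 scale. Ccl3 was 51.2, 26.0 and 318 CPM and Ccl4 was 126, 522 and 1117 CPM, both past 1.5-fold in both libraries, lower for Ccl3 in PD-L1 (-0.77 [-1.70 to 0.21]) and higher otherwise. Past it were 28.1% and 27.7% of all genes. Without the cell with most of the gene in each library, Ccl3 was 27.9, 10.9 and 155 CPM and Ccl4 was 91.6, 171 and 794 CPM. Ccr1 had 1, 0 and 3 UMIs. In PD-L1, 3 UMIs would stand at 7.79 CPM, so a low level could be missed there.

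B-like cells had been set as a type with little Ccr1, at 10.8, 5.16 and 8.03 CPM. Their median levels of Ccl3 and Ccl5 were the lowest of the 12 types. Ccl4 was 225, 149 and 230 CPM, with a median above that of alveolar macrophage-like cells. Ccl3 was 39.8, 20.8 and 32.8 CPM, and up to 35.5%, 35.0% and 24.9% of these UMIs could come from free RNA. Ccl5 was 43.7, 39.1 and 202 CPM. In cells without T or NK cell genes it was 23.2, 18.9 and 45.8 CPM. The level of Ccl5 in free RNA was 1010, 890 and 2420 CPM and that in all cells 1465, 1259 and 3007 CPM, and both were highest in AI-Exo. Free RNA could make up at most 2.02%, 1.89% and 1.59% of all UMIs of B-like cells, and its part in their Ccl5 values was not tested. Past 1.5-fold were 1.27% of genes in PD-L1, among them Ccl3 (-0.70, but -0.55 without the top cell, which ends the call), and 1.16% in AI-Exo, among them Ccl5 (1.98). Immature T-like cells had been set as a type with little Ccl3 and Ccl4. In PBS and PD-L1 they were 8.06% and 7.36% of cells and held 1.49% and 1.26% of Ccl3 UMIs. They held 2.24% and 2.03% of Ccl4 UMIs, above the 1.33% and 1.47% of B-like cells, which were 14.2% and 19.1% of cells. Ccl4 was thus not as low in them as in B-like cells.

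**Figure D4:**
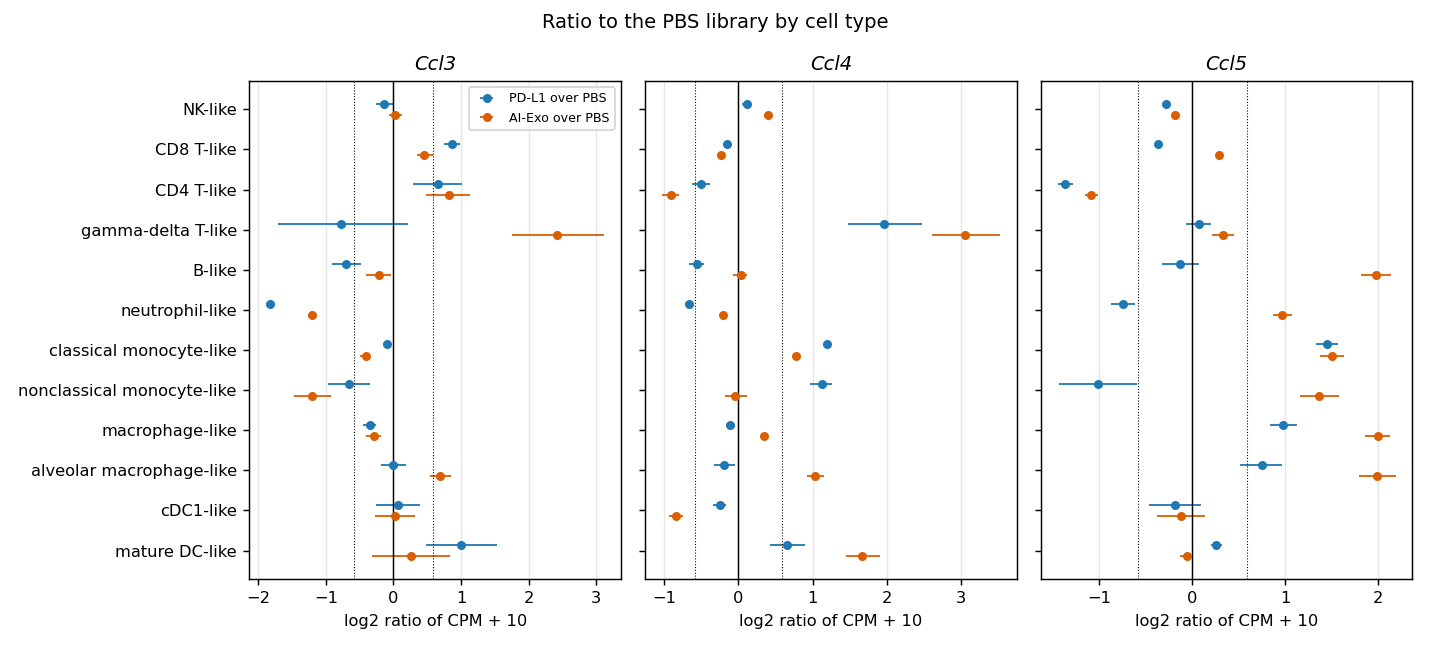
Log2 ratio of CPM plus 10 to the PBS library (x axis) by cell type (rows) for each ligand, with bars for 95% counting intervals and dotted lines at 1.5-fold. Ccl3 in neutrophil-like cells stands at -1.82 and -1.21, while Ccl5 in macrophage-like cells stands at 0.98 and 2.0 and in CD4 T-like cells at -1.37 and -1.09; both colours share the PBS library.

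The genes most like each member were found by Pearson correlation of log2 CPM plus 10 over 41 sums of a type and library, among 6732 genes. The points share libraries, depth and cell types, and the order is a description. For Ccl3 they were Itgam (0.849), Ccl4 (0.831), Cx3cr1 (0.804), Gas7 (0.747) and Aoah (0.739). For Ccl4 they were Gas7 (0.838), Ccl3, Cx3cr1 (0.753) and Ifit2 (0.750). For Ccl5 they were AW112010 (0.903), Tnfrsf9 (0.895), Peak1 (0.870), Gramd1b (0.858) and Adora2a (0.854). For Ccr1 they were Cd33 (0.954), Siglece (0.946), Nlrp3 (0.935), Cd300lf (0.915) and Cxcl2 (0.910). Between members, Ccl5 and Ccr1 had a correlation of -0.443 and Ccl3 and Ccr1 of 0.554.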

How the data were processed

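Single-cell libraries were made with 10x Genomics 3′ chemistry, per the labels' protocols. The values are whole-number UMI counts per gene and barcode as deposited by the authors, not normalized. Cell Ranger is given as 7.1.0 per the file headers and as 3.0.2 per the submitters' processing notes. No build, annotation or strand setting is given in the sources used here. The RefSeq models of Ccl3 and Ccl4 overlap by their start and end coordinates. Their strands were not compared, and assignment of UMIs between them could not be checked.

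The members and gene lists were chosen with earlier results of these data known. A cell was assigned to the type with the largest share of its markers detected, with at least 3 markers and a lead of 0.2 over other lineages. This scoring rule and the T cell and neutrophil subsets were set after cell counts per type were compared under 4 settings. A class for ties among mononuclear phagocytes was added after the sources of the members' UMIs were seen. The bound on free RNA is the largest share that its most limiting gene of at least 200 CPM allows, and was also set after seeing the files. No doublet caller was run, and doublets may remain.

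As each group was 1 library, tests were not possible. Intervals are at 95%: exact Poisson for levels, Clopper-Pearson for shares and exact conditional binomial for ratios. A ratio is log2 of CPM plus 10 over CPM plus 10, which pulls low genes toward 0. Genes were tested for size where the mean was at least 10 CPM, and called at 1.5-fold. Shares after thinning come from 1 random draw, and the thinned ratios are means of 20 draws, a number set after draws were seen to differ. Alternatives were tried for the cell filters, depth, weighting and scaling; the 2 added after seeing values left out the top cell or cells with a T or NK cell gene. Named genes were the members, from each list the highest, the lowest and the 2 with most UMIs in a described type, and the 5 most like each member, of which 1 for Ccl4 is not reported here. The size rule and the interval of the ratio were tested on counts simulated from the neutrophil-like sums. Filtering and the assignment of cell types were not tested in this way. Python 3.11.15, numpy 2.4.6, scipy 1.17.1 and pandas 2.3.3 were used.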

Additional observations from a re-analysis of the deposited data

Results flagged for a closer look

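In 6 comparisons a ligand was higher in 1 cell type and lower in another. The pairs of types shown have the highest and the lowest ratio (log2 of CPM plus 10) past 1.5-fold, and the difference between them was not tested. In AI-Exo against PBS, Ccl3 was 2.42 in γδ T-like cells and -1.21 in neutrophil-like cells. The γδ T-like cells numbered 50, 58 and 91, and 1 cell of AI-Exo held 96 of 184 Ccl3 UMIs. In PD-L1 against PBS, Ccl3 was 1.0 in mature dendritic cell-like and -1.82 in neutrophil-like cells. In the former, 1 cell held 26 of 30 UMIs in PBS and 1 held 44 of 97 in PD-L1, and in cells without a T or NK cell gene the ratio was -0.35. Ccl4 was 3.05 in γδ T-like and -0.91 in CD4 T-like cells of AI-Exo, where 1 γδ T-like cell held 197 of 647 UMIs. In PD-L1 it was 1.96 in γδ T-like cells, of which 1 held 136 of 201 UMIs, and -0.66 in neutrophil-like cells. Ccl5 was 2.0 in macrophage-like and -1.09 in CD4 T-like cells of AI-Exo. In PD-L1 it was 1.45 in classical monocyte-like and -1.37 in CD4 T-like cells.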

How the results depend on the processing

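The alternatives were run for 10 ratios, in neutrophil-like, classical monocyte-like, CD8 T-like and NK-like cells, and for 2 counts of genes. Of 116 alternative values, 79 were classed as the same and 37 as moved. The 2 counts of genes, both among the moved, have no counting interval and were judged by a 1.5-fold change. A ratio was classed as moved where it left the counting interval of the reported one. For the 10 ratios, 0 changed sign where the size had been passed. Other ratios past the size did change sign, among them Ccl5 in PD-L1. It turned from -1.01 to 1.10 in nonclassical monocyte-like cells without the top cell. Without cells with a T or NK cell gene, it turned from -0.75 to 0.28 in neutrophil-like and from 0.98 to -0.08 in macrophage-like cells. Relative to the median gene, Ccl3 and Ccl4 in neutrophil-like cells of PD-L1 were -1.74 and -0.58 and Ccr1 was 0.15. In CD8 T-like and NK-like cells of AI-Exo, Ccl5 was 0.26 and -0.15. Without the deepest 5% of cells, AI-Exo gave Ccl3 -1.08 and Ccr1 -0.17 in neutrophil-like cells, and Ccl5 1.69 in classical monocyte-like, 0.34 in CD8 T-like and -0.10 in NK-like cells. PD-L1 gave Ccl5 1.93 in classical monocyte-like cells and Ccl3 0.26 in CD8 T-like cells. With equal weights, Ccl3 was -0.98 in neutrophil-like cells of AI-Exo and 0.39 in CD8 T-like cells of PD-L1, Ccl4 was -0.84 in neutrophil-like cells of PD-L1, Ccr1 was -0.14 there in AI-Exo, and Ccl5 in AI-Exo was 0.58 in CD8 T-like and -0.06 in NK-like cells. After thinning these values were -0.95, 0.37, -0.83, -0.08, 0.58 and -0.07, and Ccl5 was 1.64 in classical monocyte-like cells of AI-Exo. Without granule-rich cells, Ccl3 and Ccr1 in AI-Exo were -0.89 and -0.07 and Ccl4 in PD-L1 was -0.57, under 1.5-fold. In effector-like CD8 T-like cells alone, Ccl5 was 0.05.

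Both alternatives added after seeing the data moved values. Without the cell with most of the gene, Ccl3 in CD8 T-like cells of PD-L1 was 0.32. Without cells with a T or NK cell gene, Ccl3 and Ccr1 in neutrophil-like cells of AI-Exo were -1.04 and -0.13, Ccl4 and Ccr1 in PD-L1 were -0.86 and 0.15, and Ccl5 in classical monocyte-like cells of AI-Exo was 2.06. Beyond the cells and genes removed by each alternative, the cause was not tested. At a mean of at least 50 CPM, 215 genes were past 1.5-fold in PD-L1 in place of 390, and 214 in AI-Exo in place of 413, with fewer genes tested. No paired analysis was possible because each group was 1 library. The intervals cover counting error, not differences between animals, and the free RNA bound assumes that all barcodes share 1 profile. Types with few cells, such as γδ T-like and basophil or mast-like cells, limit what a level can show.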
